A study of Mus musculus with 56 samples.

Results

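Lactococcus and Streptococcus, the genera of the family Streptococcaceae in these libraries, were followed through the gut contents of mice that carried or lacked the melanocortin 4 receptor (MC4R). The members were the amplicon sequence variants (ASVs, distinct sequences of the amplified 16S rRNA gene) whose family was given as Streptococcaceae, 6 of the 938 ASVs of the table. Lactococcus held 4 of them and Streptococcus 2, and 0 lacked a genus. Signalling through MC4R in the hypothalamus limits food intake, and its loss leads to overeating and obesity. Male MC4R knockout mice on a Western diet (KO-WD, n = 8) or a normal diet (KO-ND, n = 8) and male wild type C57BL/6J mice on the Western diet (WT-WD, n = 6) or the normal diet (WT-ND, n = 6) were put on the diets when 10 weeks old and kept on them for 12 weeks. All were housed singly and fed freely, and food intake was not measured. The WT mice were purchased and the KO mice were a line of their own, so genotype and the origin of the line cannot be told apart. Both genotypes had shared a room and a run-in diet before allocation. Contents of a segment just past the midpoint of the small intestine (SI) and of the large intestine (LI) were sequenced from every mouse. This gave 56 libraries of 22550 to 35236 counts (median 29721). Levels below are shares of a library's total count, so a share can fall because other taxa grew.

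Both genera are lactic acid bacteria, Gram-positive cocci that ferment sugars to lactate. Lactococcus is best known from milk and cheese, whereas streptococci are typical of the mouth and the upper gut, where simple sugars are plentiful. Sequencing of the 16S gene counts DNA of living and dead cells alike, and feed was not analysed here. The ASVs are named below by their number in the deposited table.

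Nearly all of the family was carried by 3 ASVs. ASV_006 had 51502 counts in 51 of the 56 libraries and ASV_007 had 47508 counts in 43, both placed in Lactococcus without a species. ASV_020, placed in Streptococcus, had 9170 counts in 37 libraries. The other 3 ASVs had fewer than 300 counts each, so the results rest on ASV_006, ASV_007 and ASV_020. ASV_422, the only member with a species name (Lactococcus garvieae, known as a fish pathogen), had 60 counts in 4 SI libraries, 3 of KO-WD and 1 of KO-ND. ASV_291, the other Streptococcus ASV, had 229 counts, all in WT-WD SI replicate 6, and ASV_935 had 2 counts in 1 WT-WD SI library.

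Lactococcus was a leading genus in WT contents and a minor one in KO contents. In the SI it ranked 8 of 31 genera by mean share in KO-WD mice, 9 of 37 in KO-ND mice, 2 of 38 in WT-WD mice and 4 of 35 in WT-ND mice. In the LI it ranked 11 of 45 in KO-WD mice, 21 of 47 in KO-ND mice, 3 of 42 in WT-WD mice and 4 of 45 in WT-ND mice. The order of the group means was WT-WD, WT-ND, KO-WD, KO-ND at both sites. Of the neighbours in that order, only WT-ND and KO-WD in the SI differed past the test, as given below.

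In the SI, Lactococcus ran from 0.0799% to 6.09% (median 0.675%) in KO-WD mice and from 0.127% to 2.92% (median 0.499%) in KO-ND mice. It ran from 11.002% to 30.0% (median 19.7%) in WT-WD mice and from 1.97% to 18.5% (median 9.18%) in WT-ND mice. Every KO-WD library was thus below every WT-WD library, while both KO groups overlapped WT-ND, whose replicates 1 and 2 were low at 2.21% and 1.97%. How many other genera separated without overlap, at either site, was not counted. The means were 1.56% ± 1.98 in KO-WD (SD, n = 8), 0.995% ± 1.16 in KO-ND (n = 8), 19.9% ± 7.00 in WT-WD (n = 6) and 9.82% ± 7.46 in WT-ND (n = 6). Replicate 5 held much of the KO-WD mean, which was 0.917% without it.

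Lactococcus fell in the SI of KO-WD mice compared with WT-WD mice by 3.67 log2 units (SE 0.77, adjusted p = 0.00124), a share 12.7-fold lower. This call held without each library in turn, with the fold change at -4.44 without KO-WD replicate 5. In the same comparison 58.6% of the genera tested were called, 15 lower and 2 higher. The median log2 change over all 29 genera was also -3.67, as Lactococcus was itself the genus in the middle.

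Against WT-ND, the share in the SI of KO-WD mice was 6.28-fold lower (log2 change -2.65, SE 0.92, adjusted p = 0.0274), with 36.4% of genera called and a median log2 change of -0.63. KO-ND mice had a share 9.87-fold lower than WT-ND mice (log2 change -3.30, SE 0.95, adjusted p = 0.0226), with 13% of genera called, 1 higher and 2 lower, and a median of -0.61. These calls were less firm than that between the WD groups. The KO-WD call was lost without WT-ND replicate 5 (log2 change -2.37, adjusted p = 0.0854) and under DESeq2 (-1.64, adjusted p = 0.0635), while the value was -3.42 without KO-WD replicate 5. The KO-ND call was lost without KO-ND replicate 1 (-3.22, adjusted p = 0.0506), WT-ND replicate 5 (-3.02, adjusted p = 0.0754) or WT-ND replicate 6 (-3.23, adjusted p = 0.0549), in an exact rank-sum test (adjusted p = 0.0613) and with no filter on low counts (adjusted p = 0.0508).

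Within a genotype, the diets did not separate the SI shares. The mean of WT-WD mice was 2.02 times that of WT-ND mice (log2 change 1.02, SE 0.55, adjusted p = 0.371), and 3 of the 6 WT-WD mice exceeded all WT-ND mice. In that test 0% of genera were called. KO-WD mice had 1.57 times the share of KO-ND mice (log2 change 0.65, SE 1.14, adjusted p = 0.673), again with 0% of genera called, and without KO-WD replicate 5 the value turned to -0.12. Whether the diet difference itself differed between the genotypes was tested as an interaction, which gave -0.37 on the log2 scale (SE 1.26, adjusted p = 1.00, 0% called). That value was 0.10 without KO-ND replicate 5, 0.07 without KO-ND replicate 7 and -1.13 without KO-WD replicate 5, and 0.26 with centred log ratios.

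**Figure D1:**
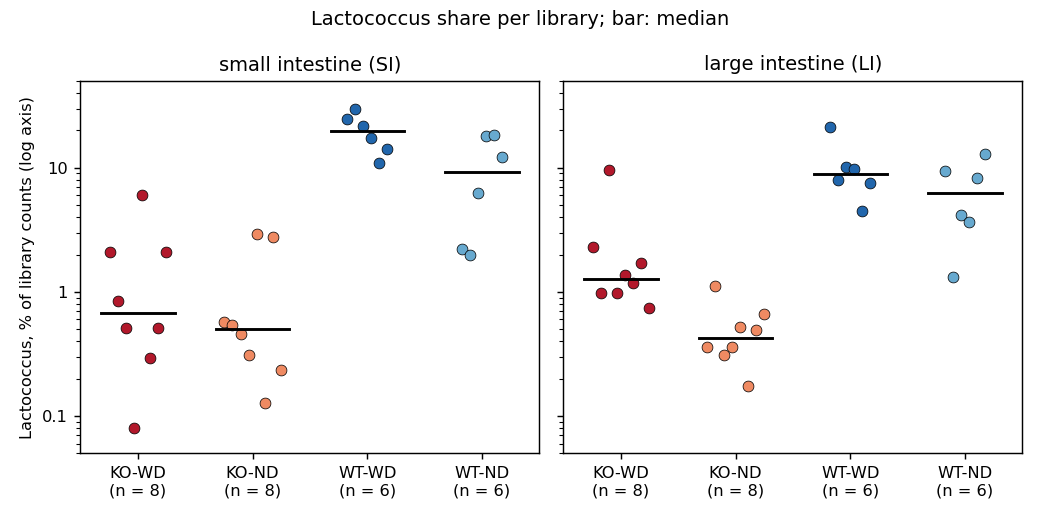
Share of Lactococcus in each library, as a percent of library counts on a log axis, by group, in SI (left) and LI (right) contents. Points are libraries and bars are group medians. All KO-WD points lie below all WT-WD points in the SI, and all KO-ND points lie below all WT-ND points in the LI.

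In the LI, Lactococcus ran from 0.748% to 9.64% (median 1.27%) in KO-WD mice and from 0.175% to 1.12% (median 0.428%) in KO-ND mice. It ran from 4.50% to 21.1% (median 8.86%) in WT-WD mice and from 1.32% to 12.8% (median 6.26%) in WT-ND mice. KO-ND mice were below every WT-ND mouse, and 7 of the 8 KO-WD mice were below every WT-WD mouse. The exception was KO-WD replicate 3 at 9.64%, while the next KO-WD library had 2.32%. The means were 2.36% ± 2.98 in KO-WD (1.32% without replicate 3), 0.501% ± 0.290 in KO-ND, 10.2% ± 5.74 in WT-WD and 6.63% ± 4.29 in WT-ND.

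The LI share in KO-ND mice was 13.2-fold lower than in WT-ND mice (log2 change -3.73, SE 0.60, adjusted p = 8.93e-05), and the values without each library in turn ran from -4.004 to -3.43, all past the test. In that comparison 29.3% of genera were called, 7 higher and 5 lower, and the median log2 change over all genera was 0.54, on the other side of 0. KO-WD mice had a share 4.29-fold lower than WT-WD mice (log2 change -2.10, SE 0.61, adjusted p = 0.0145), with 34.1% of genera called and a median of -0.64. This call held without each library, with -2.94 without KO-WD replicate 3.

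KO-WD mice did not pass the test against WT-ND mice in the LI (log2 change -1.49, SE 0.66, adjusted p = 0.123, 25.6% called). Of the fits without 1 library, only that without KO-WD replicate 3 passed (log2 change -2.32, adjusted p = 0.00320). An exact rank-sum test, which weighs replicate 3 as 1 library, did not pass (adjusted p = 0.0931). With replicate 3 included, the difference passed under DESeq2 (-1.89, adjusted p = 0.0116) and with centred log ratios (-2.67, adjusted p = 0.00878). These scalings also moved the median log2 change over all genera, from 0.52 to 0.31 under DESeq2 and to -0.97 with centred log ratios. KO-WD mice had 4.72 times the mean share of KO-ND mice, and 7 of the 8 KO-ND libraries were below every KO-WD library. In the edgeR fit of those groups this difference was 2.24 on the log2 scale (SE 0.66, adjusted p = 0.120, 0% called), and 1.40 without KO-WD replicate 3. It passed in an exact rank-sum test (adjusted p = 0.0212) and in a fit of all 4 groups (adjusted p = 0.0249). WT-WD mice had 1.53 times the share of WT-ND mice (log2 change 0.62, SE 0.54, adjusted p = 0.491, 2.7% called), and the value turned to -0.055 with TMM factors and -0.013 under DESeq2. The diet difference of the genotypes differed by 1.62 (SE 0.85, adjusted p = 0.720, 0% called), and by 0.79 without KO-WD replicate 3.

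**Figure D2:**
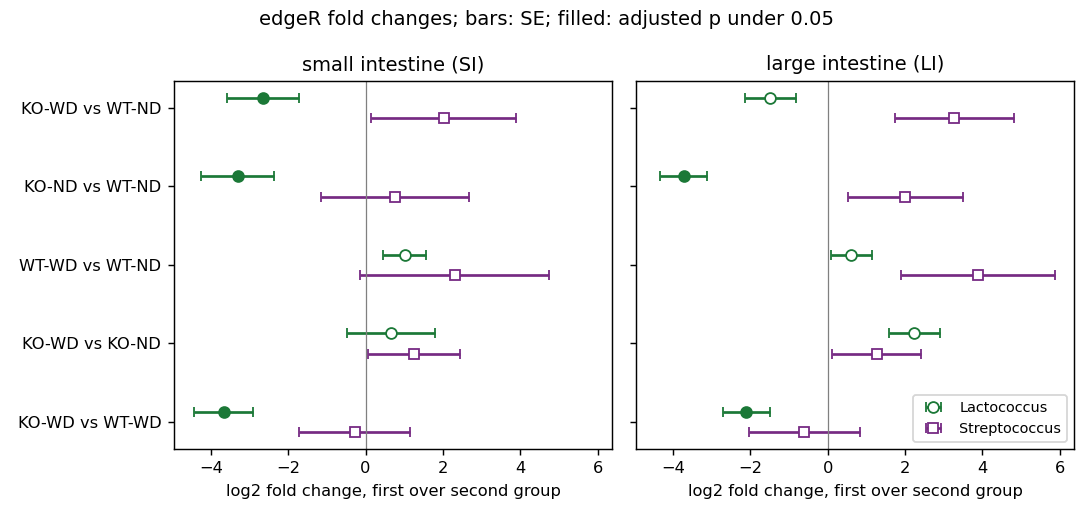
Log2 fold changes of Lactococcus (circles) and Streptococcus (squares) in 5 group comparisons, first group over second, in SI (left) and LI (right) contents. Bars are standard errors and filled symbols passed the test. The 6 Lactococcus values of a KO group over a WT group are below 0, and 5 of them are filled, while no Streptococcus symbol is filled.

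ASV_006 and ASV_007 each had a lower mean share in both KO groups than in both WT groups, at both sites. Compared with WT-WD in the SI, KO-WD mice had 10.7-fold less ASV_006 (log2 change -3.43, SE 1.10, adjusted p = 0.0111) and 15.5-fold less ASV_007 (-3.95, SE 1.63, adjusted p = 0.0435), with 61.5% of ASVs called. The ASV_006 call held without each library, and was -4.10 without KO-WD replicate 5. The ASV_007 call was lost without any one of KO-WD replicates 1, 7 and 8 or WT-WD replicates 1, 2, 3, 4 and 6, with adjusted p between 0.0515 and 0.0861, and with TMM factors (adjusted p = 0.0608). Its log2 change was -4.90 without KO-WD replicate 5. Neither ASV passed in the SI against WT-ND. For KO-WD the adjusted p was 0.0659 for ASV_006 and 0.200 for ASV_007 (54.5% of ASVs called). For KO-ND it was 0.0789 for ASV_006 and 0.152 for ASV_007 (40% called).

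In the LI of KO-ND mice, ASV_007 was listed at 0 in 6 of 8 libraries and averaged 0.0770% ± 0.145, against 2.65% ± 1.66 in WT-ND mice. Its log2 change was -5.10 (SE 1.81, adjusted p = 0.0252), -6.15 without KO-ND replicate 1 and -5.69 without KO-ND replicate 8, the 2 libraries that held it. ASV_006 averaged 0.424% ± 0.328 in KO-ND mice and 3.98% ± 2.63 in WT-ND mice (log2 change -3.23, SE 0.97, adjusted p = 0.0111). In this comparison 52.2% of ASVs were called. KO-WD mice were lower than WT-WD mice in the LI for ASV_006 (-2.04, SE 0.73, adjusted p = 0.0273) and ASV_007 (-2.17, SE 0.75, adjusted p = 0.0227), with 45.1% of ASVs called. Without WT-WD replicate 1 these calls were lost (-1.65, adjusted p = 0.0992, for ASV_006 and -1.85, adjusted p = 0.0720, for ASV_007). That of ASV_006 was also lost without KO-WD replicate 4, 7 or 8, with adjusted p of 0.0512, 0.0518 and 0.0526. With TMM factors the adjusted p was 0.147 for ASV_006 and 0.112 for ASV_007, while without KO-WD replicate 3 the values were -2.82 for ASV_006 and -3.07 for ASV_007.

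In the remaining comparisons neither ASV passed, nor did ASV_020. KO-WD against WT-ND in the LI had 47.9% of ASVs called, and both Lactococcus ASVs passed once KO-WD replicate 3 was left out (-2.44, adjusted p = 0.0119, for ASV_006 and -2.16, adjusted p = 0.0300, for ASV_007). WT-WD against WT-ND had 0% of ASVs called in the SI and 1.33% in the LI. KO-WD against KO-ND had 12.8% called in the SI and 2.66% in the LI.

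All 24 WT libraries held both main Lactococcus ASVs. Of the 32 KO libraries, 14 held both and 18 held exactly 1 of them. In the SI, 3 of 8 KO-WD libraries held both, 4 only ASV_006 and 1 only ASV_007, and among KO-ND libraries 2 held both, 3 only ASV_006 and 3 only ASV_007. In the LI, all 8 KO-WD libraries held both, whereas in KO-ND 1 held both, 6 only ASV_006 and 1 only ASV_007.

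Libraries with 1 of the ASVs were those with little Lactococcus. Their Lactococcus share ran from 0.0799% to 1.12%, and that of the libraries with both from 0.666% to 30.0%. In the SI these ranges did not touch, with at most 0.839% in libraries with 1 ASV and at least 1.97% in those with both. In the LI they overlapped, so the share alone did not fix which libraries held both. The lowest count above 0 in the whole table was 2, and how far the calling of ASVs drops the rarer sequence of a pair at low counts was not tested.

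Among libraries that held both, ASV_006 made up 30.5% to 66.1% of the pair's counts (median 53.8%). In the LI of WT mice this percent differed between the diets. It was 50.7% ± 3.35 in WT-WD mice and 59.1% ± 2.28 in WT-ND mice (SD, n = 6 each), with every WT-WD mouse below every WT-ND mouse (difference -8.42 points, exact permutation p = 0.00216, adjusted p = 0.0110 over 6 tests, two-sided). The percent in KO-WD mice lay between them at 54.5% ± 1.97 (n = 8). It was higher than in WT-WD mice by 3.82 points (exact permutation, adjusted p = 0.0340) and lower than in WT-ND mice (-4.60 points, exact permutation, adjusted p = 0.0110). These differences kept their sign and an exact p below 0.05, unadjusted, without each library in turn.

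In the SI the percent was more spread. It was 46.6% ± 10.4 in WT-WD mice and 58.6% ± 6.08 in WT-ND mice, and the difference of -12.02 points missed the threshold after adjustment (exact permutation p = 0.0346, adjusted p = 0.0519). WT-WD replicate 1 had the lowest percent, 30.5%, and without it the difference was -8.82 points. Within a mouse the percent did not separate SI from LI, in WT-WD mice (-4.13 points, exact sign-flip, adjusted p = 0.525) or in WT-ND mice (-0.52 points, exact sign-flip, adjusted p = 0.844). Few SI libraries of the KO groups held both ASVs and no test was run on them. In these it was 47.5% to 49.3% in 3 KO-WD libraries, and 48.5% and 52.0% in 2 KO-ND libraries.

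**Figure D3:**
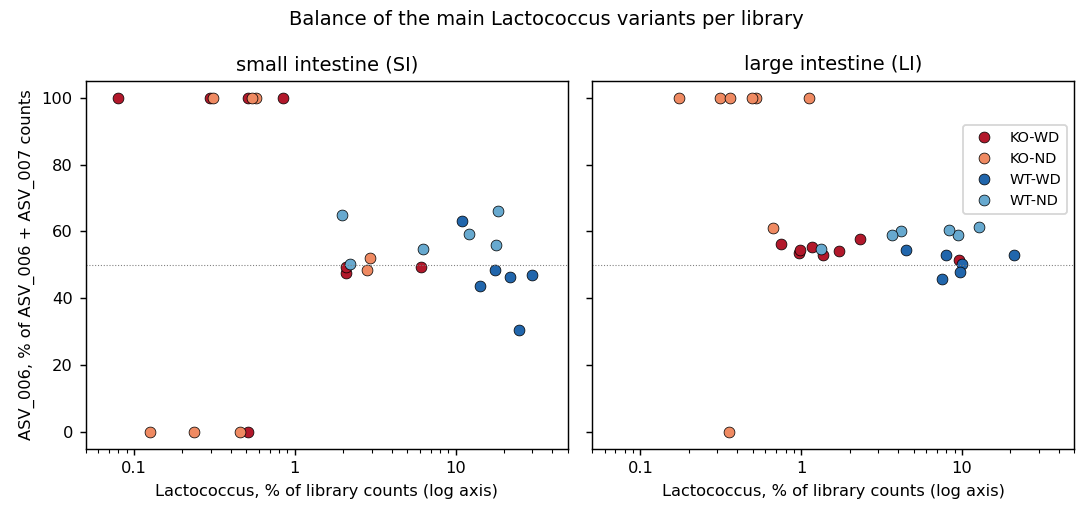
Percent of ASV_006 among the counts of ASV_006 and ASV_007 (y axis) against the Lactococcus share on a log axis (x axis), by library, in SI (left) and LI (right) contents. Points at 0 and 100 are libraries with only 1 of the ASVs, all from KO mice. In the LI, the WT-WD points (45.7% to 54.4%) lie below the WT-ND points (54.8% to 61.3%).

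Streptococcus differed from Lactococcus in where it was found. It was seen in all 8 KO-WD and all 8 KO-ND libraries of the SI, but in 4 of 6 WT-WD and 1 of 6 WT-ND libraries. In the SI it ran from 0.0967% to 5.70% (median 1.07%) in KO-WD mice and from 0.0769% to 2.36% (median 0.165%) in KO-ND mice. WT-WD mice ran from 0% to 5.86% (median 0.555%), and WT-ND mice were at 0 except replicate 4 with 2.28%. A library at 0 allows a share of up to 3 counts, here 0.00976% to 0.010001% of the 5 libraries, for counting error only. WT-WD mice fell into libraries of 1.09%, 4.29% and 5.86% and libraries of 0%, 0% and 0.0188%.

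The mean SI share was 1.55% ± 1.76 in KO-WD mice, 0.647% ± 0.906 in KO-ND mice, 1.88% ± 2.56 in WT-WD mice and 0.380% ± 0.932 in WT-ND mice. Single libraries held much of these means, which were 0.953% without KO-WD replicate 5, 0.401% without KO-ND replicate 7, 1.08% without WT-WD replicate 6 and 0% without WT-ND replicate 4. None of the 5 SI comparisons passed for Streptococcus with edgeR, and 0 had an unadjusted p under 0.05. The log2 change against WT-ND was 2.02 in KO-WD mice (SE 1.88, adjusted p = 0.358), 0.77 in KO-ND mice (SE 1.92, adjusted p = 0.694) and 2.30 in WT-WD mice (SE 2.44, adjusted p = 0.501). It was 1.26 for KO-WD over KO-ND (SE 1.19, adjusted p = 0.495) and -0.28 for KO-WD over WT-WD (SE 1.43, adjusted p = 0.877), the last turning to 0.15 without WT-WD replicate 1 and 0.52 without WT-WD replicate 6. Without KO-WD replicate 5 the value was 0.56 over KO-ND, -0.98 over WT-WD and 1.32 over WT-ND, and without KO-ND replicate 7 KO-WD over KO-ND was 1.94.

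WT-ND replicate 4 decided the comparisons with WT-ND. Without it the 5 remaining WT-ND libraries of each site had 0 Streptococcus counts. In that setting edgeR called KO-WD in the SI (adjusted p = 0.000807), KO-ND in the SI (adjusted p = 0.00657), KO-WD in the LI (adjusted p = 0.0133) and KO-ND in the LI (adjusted p = 0.0248), but not WT-WD in the SI (adjusted p = 0.0671). These calls follow from leaving out the only WT-ND mouse with counts, so they are no test of a group difference and show only how far the result rests on that mouse. Against the pooled limit of these 5 libraries (3 counts, 0.00198% in the SI), the mean SI share was at least 780-fold higher in KO-WD, at least 327-fold higher in KO-ND and at least 948-fold higher in WT-WD. These limits fell to 481-fold without KO-WD replicate 5, 203-fold without KO-ND replicate 7 and 546-fold without WT-WD replicate 6, and all of them leave out the only WT-ND mouse with counts. With replicate 4 included, the mean SI share was 4.06 times the WT-ND mean in KO-WD, 1.70 times in KO-ND and 4.94 times in WT-WD. An exact rank-sum test, which weighs replicate 4 as 1 library, gave an adjusted p of 0.0430 for KO-WD over WT-ND in the SI and 0.0963 for KO-ND.

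**Figure D4:**
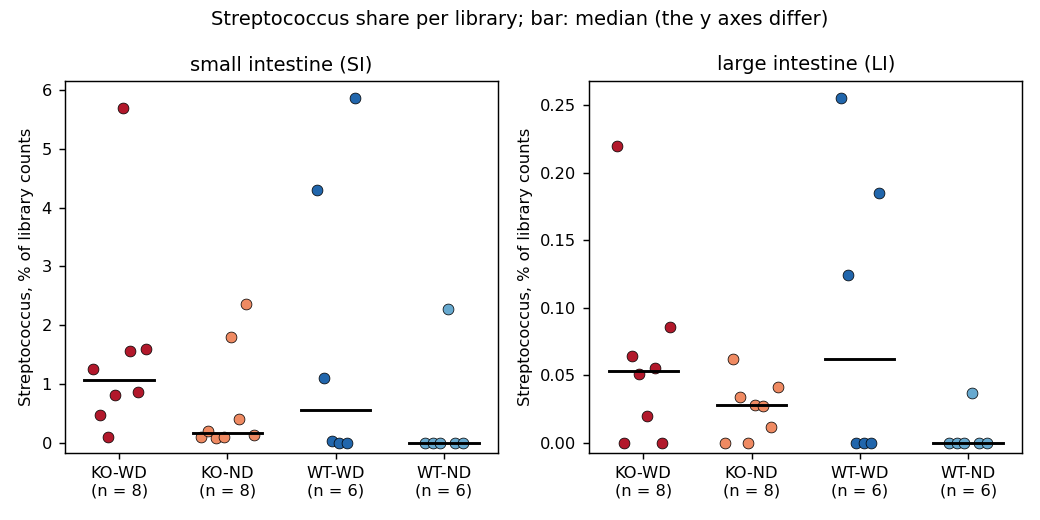
Share of Streptococcus in each library, as a percent of library counts, by group, in SI (left) and LI (right) contents. The y axes differ between the sites. Points are libraries and bars are group medians, and 5 of 6 WT-ND points are at 0 at each site.

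In the LI Streptococcus was near the limit of detection. It was seen in 6 of 8 KO-WD, 6 of 8 KO-ND, 3 of 6 WT-WD and 1 of 6 WT-ND libraries. The highest share was 0.220% in KO-WD, 0.0619% in KO-ND, 0.255% in WT-WD and 0.0367% in WT-ND mice. None of the 5 LI comparisons passed with edgeR, and the lowest unadjusted p was 0.0508. The log2 change against WT-ND was 3.28 in KO-WD mice (SE 1.54, adjusted p = 0.133), 2.01 in KO-ND mice (SE 1.49, adjusted p = 0.406) and 3.88 in WT-WD mice (SE 1.99, adjusted p = 0.246). It was 1.27 for KO-WD over KO-ND (SE 1.15, adjusted p = 0.654) and -0.60 for KO-WD over WT-WD (SE 1.44, adjusted p = 0.735). Without KO-WD replicate 1 these were 0.62 over KO-ND and -1.25 over WT-WD.

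The genera also differed in how they were spread along the gut. Streptococcus was higher in SI than in LI contents in 21 of 28 mice and lower in 0, and the other 7 mice had no counts at either site. No mouse had Streptococcus in the LI without having it in the SI. The SI share was 31.95-fold higher than the LI share in KO-WD mice (log2 change 5.00, SE 1.27, adjusted p = 0.00314), 19.2-fold higher in KO-ND mice (4.27, SE 1.34, adjusted p = 0.00374) and 15.9-fold higher in WT-WD mice (3.99, SE 1.17, adjusted p = 0.0154), with the mouse as a block. Without replicate 3 the log2 value was 5.61 in KO-WD and 4.87 in KO-ND. The WT-WD call was lost without the block (adjusted p = 0.140), and an exact sign-flip test over its 6 mice, 4 of them higher in the SI, gave p = 0.125. In the WT-ND group Streptococcus did not pass the filter on low counts. The median genus was lower in the SI, at a log2 change over all genera of -6.50 for KO-WD, -4.93 for KO-ND and -1.49 for WT-WD mice. The genera called made up 73% in KO-WD (5 higher, 22 lower), 72.2% in KO-ND (4 higher, 22 lower) and 55.3% in WT-WD mice (6 higher, 15 lower).

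Lactococcus was higher in the SI in 16 mice and higher in the LI in 12. In WT-WD mice all 6 had the higher share in the SI, with a mean difference of 9.73 ± 6.62 points (exact sign-flip p = 0.0313, the smallest that 6 mice allow) and a log2 change of 1.05 (SE 0.24, adjusted p = 0.00343). That call was lost without the mouse as a block (0.97, adjusted p = 0.0585) and with TMM factors (0.40, adjusted p = 0.145). In the other groups the sites did not separate. The SI over LI log2 change was -1.03 in KO-WD mice (SE 0.88, adjusted p = 0.307, 2 of 8 mice higher in the SI), 0.34 in KO-ND mice (SE 1.03, adjusted p = 0.813, 4 of 8) and 0.45 in WT-ND mice (SE 0.54, adjusted p = 0.452, 4 of 6, with 41.9% of genera called). Scalings that centre on all genera moved these values up: with centred log ratios they were 2.44 for KO-WD, 3.54 for KO-ND and 2.70 for WT-ND mice, all past the test.

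By ASV, ASV_020 was higher in the SI of KO-WD mice (log2 change 5.01, SE 1.24, adjusted p = 0.0143), KO-ND mice (4.39, SE 1.38, adjusted p = 0.0192) and WT-WD mice (3.87, SE 1.08, adjusted p = 0.0276). ASV_007 was higher in the SI of WT-WD mice (1.14, SE 0.27, adjusted p = 0.0258), while ASV_006 did not pass there (0.92, SE 0.35, adjusted p = 0.0618). ASVs called between the sites made up 48.7% in KO-WD, 64.8% in KO-ND, 44.2% in WT-WD and 35.8% in WT-ND mice.

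SI and LI shares of libraries taken as the same mouse were not related past the test. Within groups, Pearson's r between the sites for Lactococcus was -0.19 in KO-WD, 0.07 in KO-ND, 0.48 in WT-WD and 0.21 in WT-ND mice, and Spearman's rho was -0.10 in KO-WD, 0.33 in KO-ND, 0.66 in WT-WD and 0.26 in WT-ND mice. For Streptococcus r was -0.12 in KO-WD and -0.17 in KO-ND mice, with rho of 0.19 and 0.06. None of the 6 relations passed (exact permutation over pairings, lowest adjusted p = 0.870 for r and 0.897 for rho). Without the 2 mice farthest from the median SI share, r for Lactococcus was -0.02 in KO-WD, 0.41 in KO-ND, 0.84 in WT-WD and 0.66 in WT-ND, the last 2 over 4 mice each, and r for Streptococcus was 0.49 in KO-WD and 0.26 in KO-ND.

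**Figure D5:**
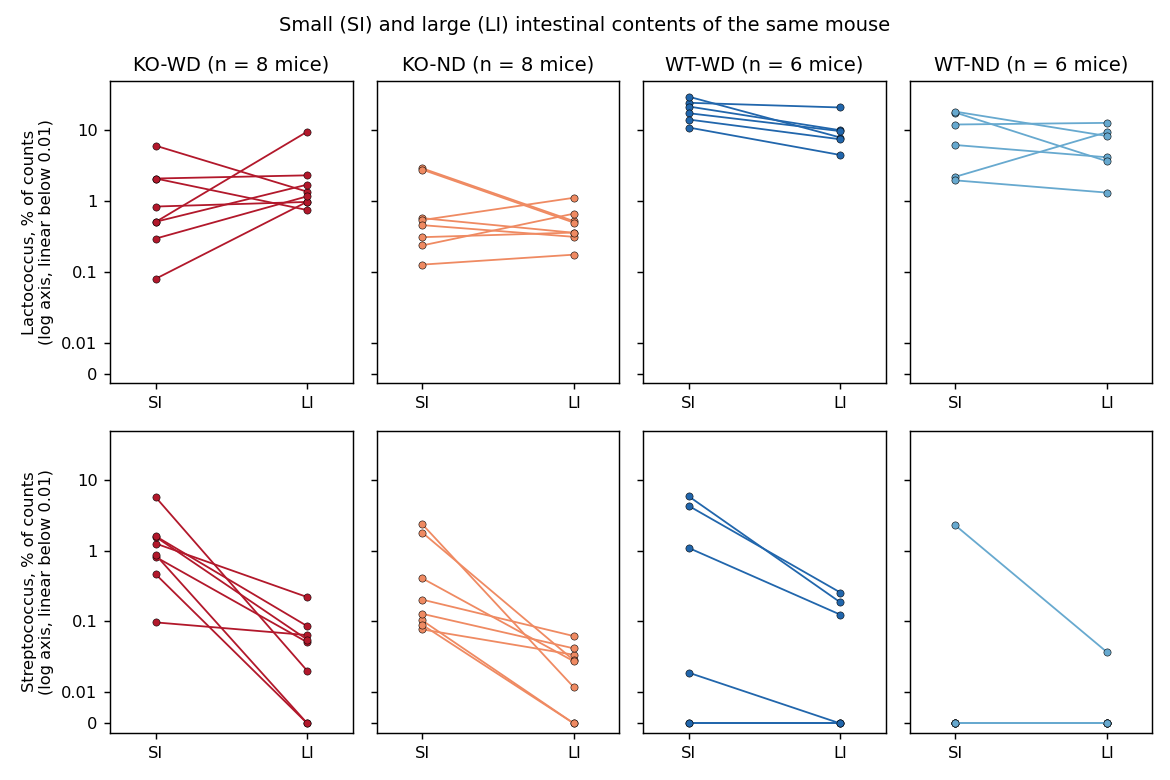
Shares of Lactococcus (top) and Streptococcus (bottom) in SI and LI contents, by group. Lines join same-numbered libraries, taken as the same mouse. The y axis is in percent of library counts, on a log scale that is linear below 0.01. Streptococcus lines with counts all fall towards the LI, and Lactococcus lines cross, except in WT-WD mice, where all 6 fall.

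The SI libraries with the most Lactococcus among KO mice were also rich in Streptococcus. KO-WD replicate 5 had the highest share of its group for both genera, 6.09% Lactococcus and 5.70% Streptococcus. KO-ND replicates 5 and 7 had 2.92% and 2.80% Lactococcus and 1.80% and 2.36% Streptococcus, while the other 6 KO-ND libraries were below 0.60% Lactococcus and 0.41% Streptococcus. Over all 28 SI libraries, however, Spearman's rho between the genera was 0.03, and 0.45 once each group's own level was taken out. In the LI it was -0.01 over all and 0.08 within groups. Lactobacillus had its lowest SI share of the group in KO-WD replicate 5 (5.45%, group median 36.2%) and in KO-ND replicate 5 (7.65%, group median 33.6%). In KO-ND replicate 7 it had 37.9%. How far the shares of these libraries depend on Lactobacillus was not tested.

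Across the 28 SI libraries, the genera whose shares followed Lactococcus most closely were Lachnospiraceae without a genus (Spearman's rho 0.79), [Ruminococcus] (0.79) and Coprococcus (0.70), all Lachnospiraceae, a family of anaerobic fermenters. Lactobacillus, the main lactic acid bacterium of the rodent gut, ran most against it (rho -0.70, last of 31 genera compared). In the LI the closest were rc4-4 and Adlercreutzia (0.78 each) and the Clostridium of Erysipelotrichaceae (0.64), and the farthest were [Prevotella] (-0.77), Odoribacter (-0.72) and Desulfovibrionaceae without a genus (-0.71). Of these LI genera, rc4-4 and the Clostridium were at 0 in both KO groups, and [Prevotella], Odoribacter and Desulfovibrionaceae without a genus were at 0 in both WT groups, while Adlercreutzia had counts in all 4 groups. Within groups the rho of the closest genera was lower, 0.40, 0.53 and 0.41 in the SI and 0.17, 0.20 and 0.22 in the LI. That of the opposed genera was also closer to 0, at -0.35 for Lactobacillus in the SI and, in the LI, -0.18 for [Prevotella], -0.22 for Odoribacter and -0.26 for Desulfovibrionaceae without a genus. The points share libraries and groups, and shares of a library depend on each other, so these values are descriptions.

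Among the other Lactobacillales only Lactobacillus was plentiful. Its SI share was 39.0% ± 18.4 in KO-WD, 32.2% ± 13.3 in KO-ND, 10.0% ± 3.87 in WT-WD and 15.7% ± 14.3 in WT-ND mice. In edgeR it was higher in KO-WD than in WT-WD mice in the SI (log2 change 1.96, adjusted p = 0.00145, 58.6% of genera called) and the LI (2.46, adjusted p = 0.0460, 34.1% called). Against WT-ND it did not pass for KO-WD in the SI (1.32, adjusted p = 0.0880) or the LI (2.25, adjusted p = 0.133). Nor did it pass for KO-ND in the SI (1.04, adjusted p = 0.282) or the LI (2.27, adjusted p = 0.109). An alternative chosen after seeing the data took Lactobacillus counts out of the library totals. Lactococcus then kept its 5 group calls. In the SI these were -2.42 (KO-WD over WT-ND), -3.01 (KO-ND over WT-ND) and -3.36 (KO-WD over WT-WD). In the LI they were -3.45 (KO-ND over WT-ND) and -1.82 (KO-WD over WT-WD). Shares of these totals still depend on the other genera, and the cause of the lower Lactococcus shares was not tested. Enterococcus reached at most 0.200% in any library. No counts were assigned to plant DNA (0 in all 56 libraries). Feed was not analysed, so whether bacterial DNA came with the food was not tested.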

How the data were processed

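The contents of both intestinal segments had been amplified over part of the 16S rRNA gene. Per the paper's methods the authors trimmed and joined the reads (FASTX-Toolkit 0.0.14, Sickle 1.33, FLASH 1.2.11), called ASVs with DADA2 in QIIME 2 2021.4 and assigned taxa with Greengenes 13_8, and they deposited raw counts per ASV and library. The members and lists were chosen with earlier results of these data known.

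Counts were summed by genus and tested with edgeR 4.0.16 (quasi-likelihood, R 4.3.3), with library totals as the scaling, each pair of groups in its own fit and Benjamini-Hochberg adjustment over all genera or all ASVs tested (threshold 0.05, two-sided). Taxa needed a mean share of at least 0.01% and counts in at least 4 libraries of the fit. SI was set against LI with the mouse as a block, taken from the sample number shared by the sites of a group. The labels do not state that these are the same mouse. Same-numbered libraries had a mean Bray-Curtis similarity of 0.585, and others of the same group 0.473. By this measure 12 of 28 mice had their own LI library as the most alike. Single values were compared by exact permutation (scipy 1.17.1). Members were named by a rule: each genus, each ASV of at least 0.1% in any group and the top 3 ASVs of each genus, and for likeness the 3 genera per site with the highest and lowest rho.

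Alternatives were TMM factors, DESeq2 1.42.0, centred log ratios with 0.5 added to each count (limma 3.58.1), no filter, all 4 groups in 1 fit, a replicate block, an exact rank-sum test and leaving out each library. The edgeR and exact tests were first tested on simulated data. The 95% Wilson interval of a library's share was at most 0.504 points to either side for Lactococcus and 0.268 for Streptococcus, and 3 counts correspond to 0.00851% to 0.0133% of a library. Intervals and limits cover counting error only, as reads carried no molecular identifiers. No library pair was identical (0 found). The labels name no sequencing batch.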

Additional observations from a re-analysis of the deposited data

Results flagged for a closer look

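Among the 16 values of the genera by group and site, 7 had 1 library far from the rest of its group by Dixon's test, where chance gives about 1 in 20 for normally distributed values. The rate for skewed shares with zeros was not tested. For Lactococcus these were KO-WD SI replicate 5 at 6.09% (the others between 0.0799% and 2.09%), KO-WD LI replicate 3 at 9.64% (others 0.748% to 2.32%) and WT-WD LI replicate 1 at 21.1% (others 4.50% to 10.1%).

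For Streptococcus they were KO-WD SI replicate 5 at 5.70% (others 0.0967% to 1.5999%), KO-WD LI replicate 1 at 0.220% (others 0% to 0.0853%), and both libraries of WT-ND replicate 4, with 2.28% in the SI (692 counts, 95% Wilson interval 2.12% to 2.46%) and 0.0367% in the LI (10 counts, 0.0199% to 0.0676%), where the other 5 WT-ND mice had 0 counts at either site. KO-WD SI replicate 5 was thus the highest of its group for both genera.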

How the results depend on the processing

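Scaling moved the median over all genera: between groups the median log2 fold change shifted by up to 1.31 under DESeq2, 2.44 under centred log ratios and 0.64 under TMM factors, and between sites by up to 2.90, 5.94 and 0.44. Single genera moved by other amounts. For SI over LI in KO-WD under centred log ratios, the median moved by 5.94 and Lactococcus from -1.03 to 2.44. Lactococcus KO-WD over WT-WD in the SI and KO-ND over WT-ND in the LI passed under every alternative run. KO-WD over WT-ND in the SI was lost under DESeq2 (-1.64) and with the replicate block (-3.04, adjusted p = 0.0948), and ranged from -3.42 to -2.37 without single libraries. KO-ND over WT-ND in the SI was lost with the replicate block (-3.67, adjusted p = 0.0924), with no filter (-3.30, adjusted p = 0.0508) and by rank sums (-3.30, adjusted p = 0.0613), and ranged from -3.77 to -3.02. KO-WD over WT-WD in the LI was lost only with the replicate block (-2.39, adjusted p = 0.0953). With the replicate block 2 of the 5 Lactococcus calls between groups thus remained. Equal numbers in different groups are different mice, and the labels name no batch. Correlations of the deviations of same-numbered libraries across groups ran from -0.501 to 0.567, with 20 of 64 pairs over 0.1. Libraries with unequal numbers were not compared in this way, so whether equal numbers share a batch was not tested. KO-WD over WT-ND in the LI passed under DESeq2 (-1.89) and centred log ratios (-2.67), ranging from -2.32 to -1.19. It did not pass by rank sums (adjusted p = 0.0931). KO-WD over KO-ND in the LI passed with all 4 groups in 1 fit (2.24) and by rank sums (2.24), and in the SI it ranged from -0.12 to 1.12. WT-WD over WT-ND in the LI turned to -0.055 under TMM and -0.013 under DESeq2. The SI interaction turned to 0.26 under centred log ratios and ranged from -1.13 to 0.10. SI over LI was 0.93 under DESeq2 and 2.44 under centred log ratios in KO-WD, 1.81 and 3.54 in KO-ND (both past the test), 2.70 under centred log ratios in WT-ND, and in WT-WD 0.40 under TMM and 0.97 without the replicate block, neither past the test.

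For Streptococcus, KO-WD over WT-ND in the SI passed with centred log ratios (8.15), the replicate block (9.92) and the rank-sum test (2.02), ranging from 1.32 to 11.73 without single libraries, and KO-ND over WT-ND passed with centred log ratios (6.24), ranging from 0.078 to 10.52. KO-WD over KO-ND in the SI passed under DESeq2 (2.00). KO-WD over WT-WD in the SI turned to 1.01 under DESeq2, 5.16 under centred log ratios, 1.33 with the replicate block and 0.058 without Lactobacillus counts in the total, ranging from -0.98 to 0.52, and in the LI to 0.44 under centred log ratios and 1.47 with the replicate block. In the LI, KO-WD over WT-ND ranged from 2.63 to 7.21 and KO-ND over WT-ND from 1.69 to 5.96. The genotype by diet interaction of Streptococcus in the SI passed only without WT-ND replicate 4 (-10.79). Fitted values against groups at 0 depend on the prior count. SI over LI in WT-WD was lost without the replicate block (4.31) and by sign flips (4.32). Without single libraries, KO-WD over KO-ND in the SI ranged from -0.051 to 1.06 for ASV_006 and from -0.30 to 1.17 for ASV_007, and WT-WD over WT-ND in the LI from -0.0049 to 0.69 for ASV_006. The ASV_006 percent of the pair, SI minus LI in WT-ND, ranged from -2.63 to 1.08 points. The KO-WD over WT-WD calls were lost under TMM for ASV_007 in the SI (-3.72) and in the LI for ASV_006 (-1.54) and ASV_007 (-1.71). No value was had in 16 Streptococcus fits. In 15 of them Streptococcus did not pass the filter on low counts, and in 1, KO-ND over WT-ND in the SI, DESeq2 gave no adjusted p. The cause of these changes was not tested.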
